A study of Mus musculus with 12 samples.

Results

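The comparison set mouse S100β-v-erbB/p53-/- cells kept in hypoxia with EHT-1864 against the same cells kept in normoxia with DMSO, to ask what was left of the hypoxic state under a Rac inhibitor and what was new. All 22206 transcript cluster probes of the array that are not controls were compared, on 6 of the 12 arrays of the series (3 arrays of each group). The cells carry the v-erbB oncogene driven by the S100β promoter and lack p53, a mouse model of glioma. All 4 groups were the same line, which the labels call TSC1, of strain FVB-NJ, grown in DMEM F-12 with B27. The exposure to hypoxia or normoxia, with compound or DMSO, was 16 h in every group. The groups were hypoxia with 1 µM EHT-1864, hypoxia with brefeldin A (BFA), hypoxia with DMSO and normoxia with DMSO. Each had 3 cultures stated to be independent. No group had EHT-1864 in normoxia. An effect of the compound at any oxygen level and an effect limited to hypoxia therefore cannot be told apart. The labels give 2 doses for BFA, 1 µM in the protocol and 0.1 µM in the series title, and no oxygen tension. RNA extracted with Trizol was labelled with biotin and hybridised to Clarion S mouse arrays.

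In low oxygen the hydroxylases that mark HIF-1α for destruction slow down, HIF-1 accumulates, and it switches on genes of glucose uptake, glycolysis, angiogenesis and mitochondrial clearance. The Rac GTPases are molecular switches that drive actin branching, membrane ruffling and cell migration. EHT-1864 is a small molecule that binds Rac proteins and holds them in an inactive state, so the arrays read the RNA of treated cells and not the activity of Rac itself.

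Levels are given as the deposited log2 value, and changes as the difference of group means on that scale with the standard error from limma. A probe passed the test at a Benjamini-Hochberg adjusted p under 0.05 over all 22206 probes. A gene was called below the floor of a group where all 3 of its arrays lay under the 95th percentile of that array's negative control probes. This floor averaged 6.01 with EHT-1864 and 5.61 in normoxia. The arrays of the EHT-1864 group had a narrower spread of values, with an SD over probes of 2.38 to 2.44, against 2.46 to 2.51 in normoxia. Between 55.9% and 60.0% of probes lay under the floor on the EHT-1864 arrays, against 51.9% to 52.3% in normoxia. The part of this spread in the results below was not tested. In bulk RNA, fewer cells of a type and less RNA per cell cannot be told apart.

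Of 22206 probes, 4965 passed the test in hypoxia with EHT-1864 against normoxia (22.4%), 1798 of them higher (8.1%) and 3167 lower (14.3%). After quantile normalization the split was 2211 higher and 2507 lower. At 2-fold or more, 301 were higher (1.36%) and 783 lower (3.53%). Hypoxia with DMSO against the same normoxia arrays gave 593 (2.67%), of which 468 were higher (2.11%) and 125 lower (0.563%). These comparisons share their normoxia arrays, so their values are set side by side below. Among the 9806 probes whose mean over the 12 arrays exceeded the mean floor, 12.3% were higher and 26.3% lower with EHT-1864, with a median change of -0.10. Among the 12400 at or below it, 4.73% were higher and 4.73% lower, with a median of 0.10. The counts of gene lists below can be read against both backgrounds.

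**Figure D1:**
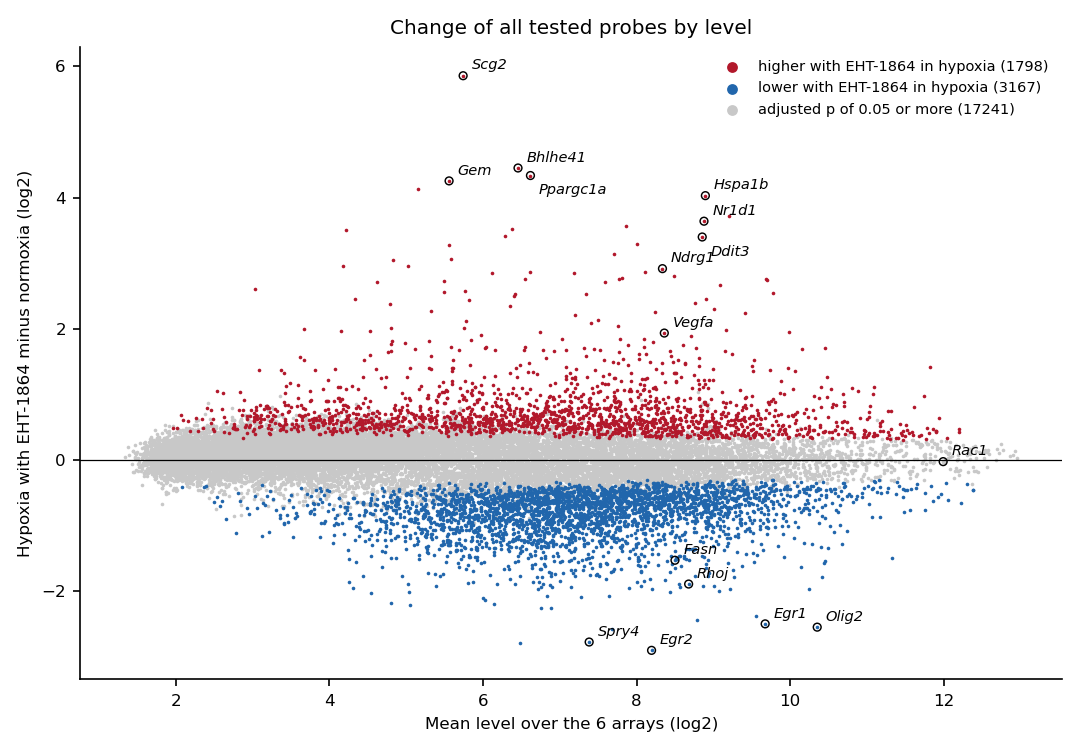
Difference of hypoxia with EHT-1864 minus normoxia (y, log2) against the mean level over the 6 arrays (x, log2), 1 point per probe. Red points (1798) passed the test as higher, blue points (3167) as lower and grey points did not pass. Scg2 lies highest, Egr2 lowest, and Rac1 lies on the zero line.

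The hypoxic rise of most HIF-1 targets was smaller with EHT-1864, and for many it did not pass the test against normoxia. Of 45 measured HIF-1 targets outside glycolysis, 16 were higher and 3 lower than in normoxia with EHT-1864, with a median change of 0.31. In hypoxia with DMSO 35 of the same 45 were higher and 1 lower, with a median of 1.82. Of 16 genes of glycolysis and glucose transport, 4 were higher and none lower with EHT-1864 (median 0.12), whereas 15 were higher in hypoxia with DMSO (median 1.41). The direct test of hypoxia with EHT-1864 against hypoxia with DMSO found 32 of the 45 and 16 of the 16 lower with EHT-1864, where 17.4% of all probes were lower. The median over all probes was 0.04 for EHT-1864 against normoxia and -0.03 for hypoxia with DMSO against normoxia.

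The 10 largest hypoxic rises were Ankrd37, P4ha2, Ndrg1, Pdk1, Slc2a3, Ppp1r3c, Slc16a3, Egln3, Bnip3 and Ciart. P4ha2, a prolyl hydroxylase subunit that matures collagen, had levels of 6.48, 6.39 and 6.88 in hypoxia with EHT-1864, against 10.38, 10.17 and 10.32 in hypoxia with DMSO and 6.26, 6.24 and 6.22 in normoxia. The EHT-1864 arrays lay just above the normoxia arrays, and the difference of 0.35 ± 0.14 missed the threshold (adjusted p = 0.113, 95% interval 0.03 to 0.66). It passed after quantile normalization, at 0.49 (adjusted p = 0.0263). P4ha2 was 16.6-fold above normoxia in hypoxia with DMSO, and 13.03-fold lower with EHT-1864 than with DMSO in hypoxia (adjusted p = 2.33e-08).

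Pdk1, the kinase that turns pyruvate away from mitochondria, had 6.67, 5.83 and 7.15 in hypoxia with EHT-1864, against 9.79, 9.99 and 9.88 in hypoxia with DMSO and 6.17, 5.78 and 6.12 in normoxia. The second EHT-1864 array lay within the normoxia range and the other two above it. The difference was 0.53 ± 0.25 (adjusted p = 0.168, 95% interval -0.02 to 1.07). Without the second EHT-1864 array it was 0.88 (adjusted p = 0.00516). The same array decided Ddit4, an inhibitor of mTORC1, which differed by 0.56 ± 0.19 (adjusted p = 0.0547) with all arrays and by 0.83 (adjusted p = 0.00118) without it.

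Within glycolysis, Hk2, which traps glucose in the cell, had 6.10, 6.46 and 6.06 with EHT-1864, against 8.92, 8.24 and 8.56 in hypoxia with DMSO and 6.55, 6.37 and 6.25 in normoxia. Its EHT-1864 and normoxia arrays overlapped (-0.18 ± 0.20, 95% interval -0.63 to 0.26). Pgk1, the first enzyme of the pathway to make ATP, had 10.72, 10.64 and 10.71 with EHT-1864, 11.93, 12.12 and 12.10 in hypoxia with DMSO, and 10.67, 10.63 and 10.55 in normoxia. Those groups also overlapped, at 0.07 ± 0.11 against normoxia (95% interval -0.16 to 0.31). For Ldha, which makes lactate, the arrays did not overlap, yet the difference of 0.22 ± 0.12 missed the threshold (adjusted p = 0.224, 95% interval -0.04 to 0.48). The monocarboxylate exporter Slc16a3, the carbonic anhydrase Car9 and the peptide hormone Adm were below the floor in both groups, though above it in hypoxia with DMSO.

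For 3 members of the hypoxia lists the level under EHT-1864 fell below that of normoxia although hypoxia with DMSO had it above. Egln1, the main oxygen sensing hydroxylase that inactivates HIF, had 8.80, 8.05 and 8.89 with EHT-1864, against 10.63, 10.77 and 10.70 in hypoxia with DMSO and 9.45, 9.43 and 9.41 in normoxia (-0.85 ± 0.21 against normoxia, adjusted p = 0.0108). Plod2, a collagen lysyl hydroxylase, differed from normoxia by -0.60 ± 0.16 with EHT-1864 (adjusted p = 0.0174) and by 1.75 ± 0.16 in hypoxia with DMSO. Bnip3l, a mitophagy receptor, differed by -0.36 ± 0.12 with EHT-1864 (adjusted p = 0.0488) and by 1.11 ± 0.12 with DMSO. Plod2 and Bnip3l were among the 3 HIF-1 targets lower than normoxia. That count became 1 after quantile normalization, and 1 without the second normoxia array.

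A smaller set kept part of its hypoxic rise. Ndrg1, a stress induced differentiation gene, had 9.98, 9.51 and 9.89 with EHT-1864, against 11.03, 10.83 and 10.80 in hypoxia with DMSO and 7.11, 6.76 and 6.78 in normoxia. The groups lay in 3 separate bands, 7.54-fold above normoxia with EHT-1864 (2.92 ± 0.16, adjusted p = 1.21e-07) and 16.1-fold above it with DMSO. The angiogenic factor Vegfa had 9.50, 8.83 and 9.65 with EHT-1864, against 10.31, 10.68 and 10.47 in hypoxia with DMSO and 7.64, 7.34 and 7.21 in normoxia, and was 3.81-fold above normoxia (adjusted p = 2.18e-05). The glucose transporter Slc2a1 was 2.57-fold above normoxia with EHT-1864 and 5.06-fold with DMSO, with levels of 10.47, 10.34 and 10.45 against 9.14, 9.07 and 8.96 in normoxia. Also higher than normoxia with EHT-1864, and lower than hypoxia with DMSO, were the ER oxidase Ero1a (1.67 ± 0.14), the collagen hydroxylase P4ha1 (1.08 ± 0.12), the mitophagy gene Bnip3 (0.90 ± 0.14), the aldolase Aldoa (0.82 ± 0.12) and the hydroxylase Egln3 (0.76 ± 0.17). The neuronal glucose transporter Slc2a3 differed by 0.57 ± 0.18 (adjusted p = 0.041), and its adjusted p was above the threshold without any of 5 single arrays, from 0.0928 without the third normoxia array to 0.125 without the third EHT-1864 array.

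In another set the level with EHT-1864 did not differ past the threshold from that in hypoxia with DMSO, or was higher. Bhlhe40, a repressor of the clock and of differentiation, had 10.23, 10.21 and 9.96 with EHT-1864, 10.22, 10.25 and 10.22 in hypoxia with DMSO, and 7.67, 7.60 and 7.79 in normoxia. It was 5.47-fold above normoxia (adjusted p = 4.34e-08), and its difference between EHT-1864 and DMSO in hypoxia was -0.09 with a 95% interval of -0.36 to 0.17. Ciart, a clock repressor, had 8.40, 7.67 and 8.06 with EHT-1864, against 8.46, 8.30 and 8.40 in hypoxia with DMSO. That difference was -0.34 (95% interval -0.69 to 0.01). Without the first EHT-1864 array Ciart passed as lower than in hypoxia with DMSO, at -0.52 (adjusted p = 0.0244). Its normoxia level was below the floor, so it was at least 5.42-fold higher with EHT-1864 (adjusted p = 1.57e-07). The MYC antagonist Mxi1 differed from normoxia by 1.03 ± 0.12 with EHT-1864 and by 1.08 ± 0.12 with DMSO. Heme oxygenase Hmox1 had 10.29, 9.89 and 10.29 with EHT-1864, 9.77, 9.75 and 9.82 in hypoxia with DMSO and 7.89, 7.91 and 7.79 in normoxia, and was higher with EHT-1864 than with DMSO (0.38 ± 0.12, adjusted p = 0.0375). Bhlhe41, the partner repressor of Bhlhe40, had 8.88, 8.51 and 8.66 with EHT-1864, against 6.59, 6.43 and 6.59 in hypoxia with DMSO. With normoxia below the floor it was at least 8.41-fold higher there (adjusted p = 1.74e-08), and it was 4.43-fold higher than in hypoxia with DMSO (adjusted p = 8.21e-06).

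**Figure D2:**
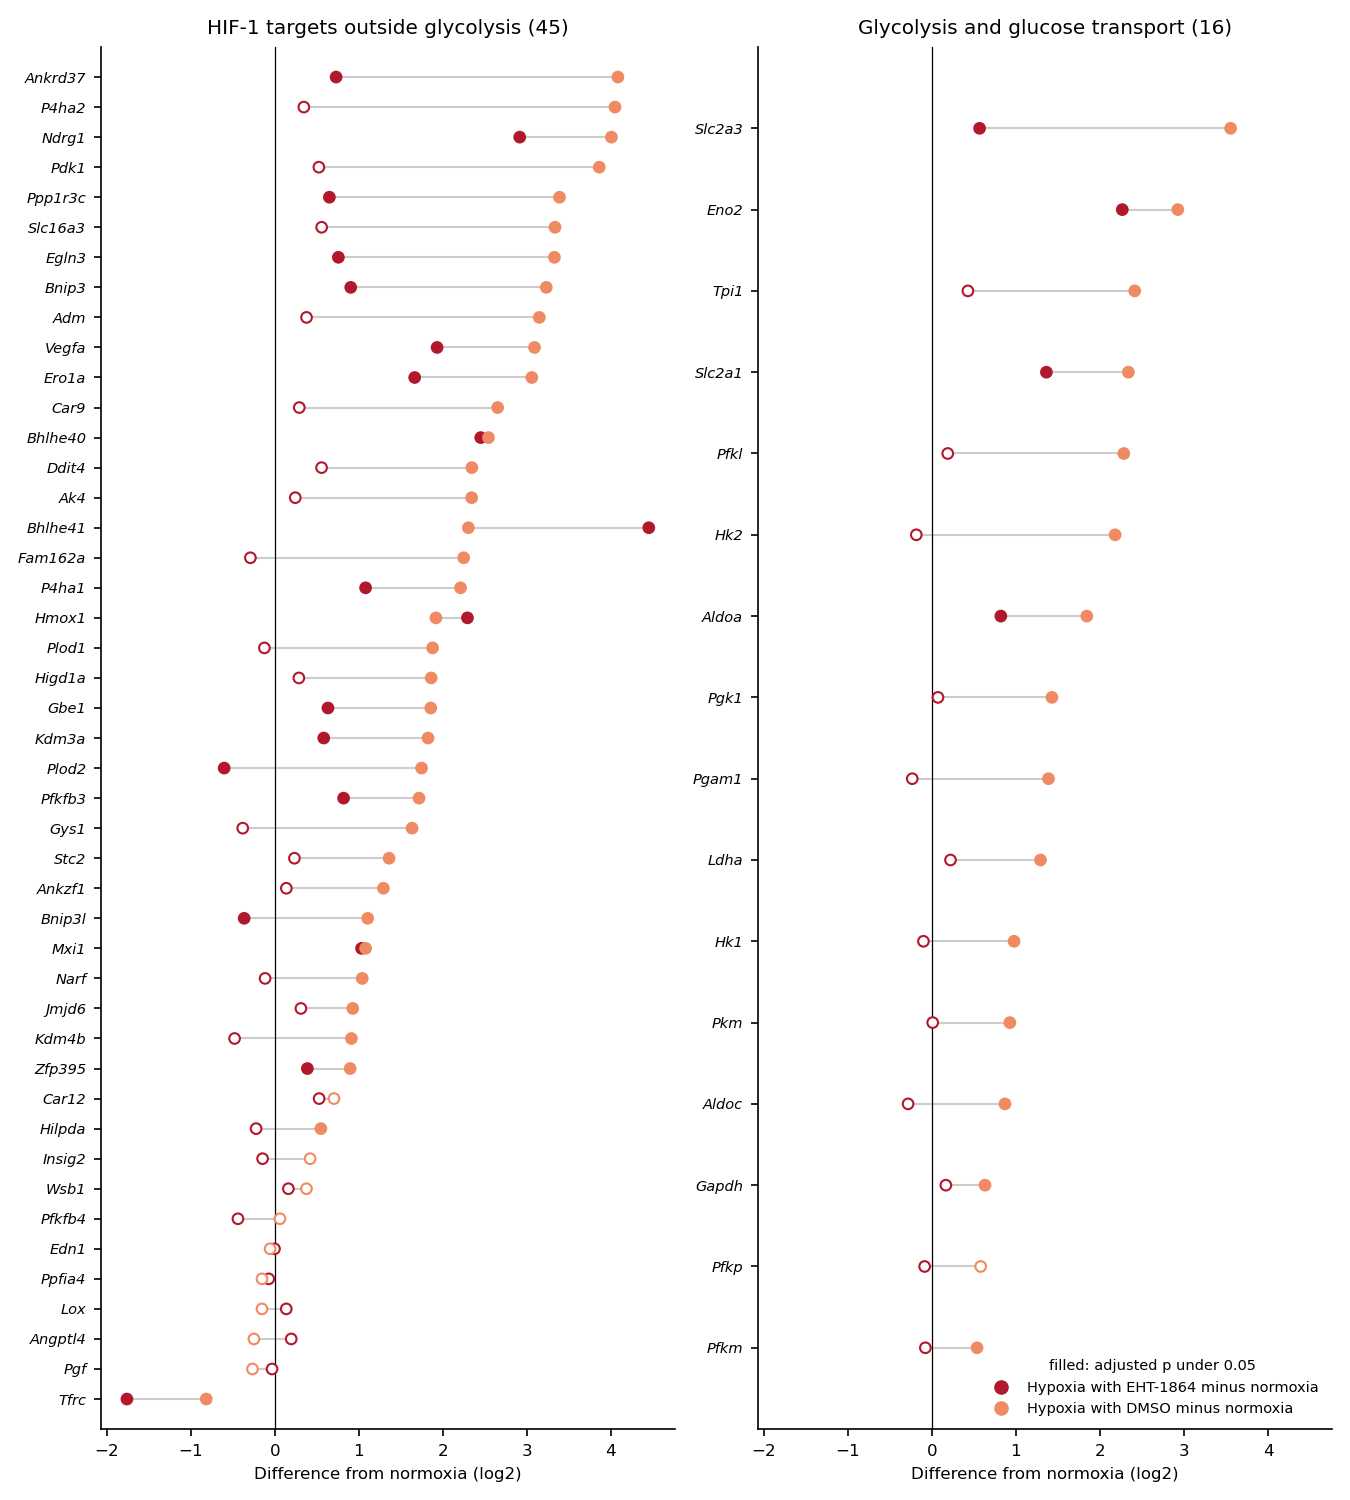
Difference from normoxia (x, log2) of 45 HIF-1 targets (left) and 16 genes of glycolysis and glucose transport (right) in hypoxia with EHT-1864 (red) and in hypoxia with DMSO (orange), filled where the adjusted p was under 0.05. Red points sit left of orange ones for most genes, while Bhlhe40 and Mxi1 nearly coincide and Bhlhe41 and Hmox1 lie further right in red.

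Of 12 HIF regulators and oxygen sensors 3 were higher and 2 lower than normoxia with EHT-1864 (median 0.08), and 1 was lower without the second EHT-1864 array, the first normoxia array or the second normoxia array. In hypoxia with DMSO 4 were higher and none lower, and with EHT-1864 against DMSO in hypoxia 3 were higher and 4 lower. Egln1 and Egln3, given above, belong to this list. Hif1a, the oxygen regulated subunit, had 9.27, 9.09 and 9.25 with EHT-1864, 9.32, 9.36 and 9.32 in hypoxia with DMSO, and 9.19, 9.25 and 9.20 in normoxia. Its difference from normoxia was -0.01 ± 0.13 (95% interval -0.30 to 0.28), and its sign turned under other scalings. Arnt, the constant partner of HIF-1α, was higher with EHT-1864 than in normoxia (0.61 ± 0.13, adjusted p = 0.00423). Cited2, which competes with HIF-1α for the coactivator p300, had 11.69, 11.75 and 11.51 with EHT-1864, 11.06, 11.12 and 11.15 in hypoxia with DMSO and 10.52, 10.60 and 10.51 in normoxia. Its 3 groups did not overlap, and with EHT-1864 it was 2.15-fold above normoxia (adjusted p = 3.59e-05).

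Promoter windows were searched for ACGTG on both strands, the core of the hypoxia response element, in the 250 bases before and 50 after each start (RefSeq, GRCm38.p6). The core was in 24 of 36 HIF-1 target genes with a window (66.7%) and 11 of 15 glycolysis genes (73.3%), against 21.8% of 27018 genes. The 250 bases before the start are printed 5′ to 3′ for 5 genes that span the range of responses, with each core in capitals. A palindrome CACGTG counts as a match on each strand. P4ha2 and Ankrd37 kept little of their rise, Slc2a1 kept part, and Bhlhe41 was higher with EHT-1864 than with DMSO in hypoxia. With all arrays, Ciart did not differ past the threshold between EHT-1864 and DMSO in hypoxia. The windows of P4ha2, Ankrd37, Slc2a1, Ciart and Bhlhe41 are given in that order. They lie at chr11:54100674-54100923 (+ strand), chr8:45999851-46000100 (- strand), chr4:119108495-119108744 (+ strand), chr3:95882229-95882478 (- strand) and chr6:145865421-145865670 (- strand).
P4ha2: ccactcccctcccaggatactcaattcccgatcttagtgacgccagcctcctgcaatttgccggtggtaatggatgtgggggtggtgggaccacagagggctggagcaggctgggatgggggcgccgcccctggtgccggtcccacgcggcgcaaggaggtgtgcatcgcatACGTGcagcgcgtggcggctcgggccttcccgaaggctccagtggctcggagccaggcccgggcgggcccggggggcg
Ankrd37: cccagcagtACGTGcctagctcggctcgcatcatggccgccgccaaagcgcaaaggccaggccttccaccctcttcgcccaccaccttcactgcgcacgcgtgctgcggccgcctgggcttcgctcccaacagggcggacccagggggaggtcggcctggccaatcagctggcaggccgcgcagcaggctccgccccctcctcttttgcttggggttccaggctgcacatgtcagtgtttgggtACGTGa
Slc2a1: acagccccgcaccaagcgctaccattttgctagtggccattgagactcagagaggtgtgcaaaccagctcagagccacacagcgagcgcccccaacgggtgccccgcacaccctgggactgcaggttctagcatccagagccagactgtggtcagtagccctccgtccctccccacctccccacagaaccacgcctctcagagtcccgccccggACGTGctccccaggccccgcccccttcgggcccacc
Ciart: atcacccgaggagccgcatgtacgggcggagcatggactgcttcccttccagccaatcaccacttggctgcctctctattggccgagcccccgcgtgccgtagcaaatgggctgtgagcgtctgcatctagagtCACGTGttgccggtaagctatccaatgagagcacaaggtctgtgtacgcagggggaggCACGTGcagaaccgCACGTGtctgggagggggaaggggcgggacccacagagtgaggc
Bhlhe41: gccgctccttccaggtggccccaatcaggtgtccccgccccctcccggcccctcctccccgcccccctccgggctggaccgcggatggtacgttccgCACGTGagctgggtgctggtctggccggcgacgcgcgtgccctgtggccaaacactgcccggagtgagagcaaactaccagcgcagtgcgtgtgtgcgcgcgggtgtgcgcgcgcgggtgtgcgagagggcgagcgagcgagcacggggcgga
The core stood 78 bases before the start in P4ha2 and 36 bases before it in Slc2a1. Every match printed for Ciart and Bhlhe41 lay in the palindrome CACGTG, at 3 places in Ciart. The search was for letters only, and which factors bind these matches was not tested. The 5 genes were picked as holders of the core, so its presence in each kind of response was fixed by that choice.

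The integrated stress response, the pathway in which phosphorylated eIF2α raises the transcription factor ATF4, was higher with EHT-1864 as it was in hypoxia with DMSO. Of 30 measured genes of the list, 21 were higher than normoxia and none lower with EHT-1864 (median 0.80). In hypoxia with DMSO 19 were higher and none lower (median 0.71). In the direct comparison of EHT-1864 with DMSO in hypoxia 5 were higher and 7 lower (median 0.02). Of all probes 13% were higher and 17.4% lower, and of those above the mean floor 14.7% were higher and 30.6% lower.

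Ddit3, the pro-apoptotic factor CHOP, had 10.66, 10.31 and 10.69 with EHT-1864, against 9.14, 8.77 and 8.77 in hypoxia with DMSO and 7.41, 6.98 and 7.08 in normoxia. The 3 groups stood in separate bands, with EHT-1864 10.5-fold above normoxia (3.40 ± 0.16, adjusted p = 2.46e-08) and 3.16-fold above hypoxia with DMSO. A second Ddit3 probe gave 3.30 against normoxia. Atf3, a stress factor downstream of ATF4, had 8.94, 8.98 and 8.92 with EHT-1864, against 6.65, 6.74 and 6.61 in hypoxia with DMSO and 5.95, 6.41 and 6.33 in normoxia. It passed the test against both groups (2.72 ± 0.13 and 2.28 ± 0.13), while hypoxia with DMSO differed from normoxia by 0.44 ± 0.13 (adjusted p = 0.118).

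Nupr1, a chromatin protein of the stress response, had 10.06, 9.39 and 10.21 with EHT-1864, 9.40, 9.40 and 9.32 in hypoxia with DMSO and 7.18, 7.07 and 7.02 in normoxia, 6.95-fold above normoxia (adjusted p = 3.38e-07). Trib3, a pseudokinase induced by CHOP, was 4.77-fold and Atf4 itself 1.83-fold above normoxia with EHT-1864. The direct difference between EHT-1864 and DMSO in hypoxia was 0.37 for Trib3 (95% interval -0.07 to 0.81) and 0.15 for Atf4 (95% interval -0.10 to 0.41), neither past the threshold. The cystine transporter Slc7a11 went the other way in that comparison, with 6.61, 6.08 and 6.79 with EHT-1864, against 8.18, 8.14 and 8.14 in hypoxia with DMSO and 6.20, 5.86 and 6.30 in normoxia (-1.66 ± 0.18 against hypoxia with DMSO, adjusted p = 3.36e-05).

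The composite element TGATGNAA, searched on both strands, was in 9 of 26 genes of the stress list with a window (34.6%), against 4.51% of all genes. Its match, written on the opposite strand as TTGCATCA, is in capitals in 2 members whose levels are given above. Their windows of 250 bases are at chr1:191183334-191183583 (Atf3, - strand) and chr7:126625471-126625720 (Nupr1, - strand), and the match starts 110 bases before the start in both.
Atf3: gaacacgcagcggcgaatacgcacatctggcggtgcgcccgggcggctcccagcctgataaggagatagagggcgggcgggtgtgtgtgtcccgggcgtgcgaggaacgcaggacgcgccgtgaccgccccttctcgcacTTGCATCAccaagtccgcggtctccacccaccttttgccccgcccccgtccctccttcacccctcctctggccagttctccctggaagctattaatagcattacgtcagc
Nupr1: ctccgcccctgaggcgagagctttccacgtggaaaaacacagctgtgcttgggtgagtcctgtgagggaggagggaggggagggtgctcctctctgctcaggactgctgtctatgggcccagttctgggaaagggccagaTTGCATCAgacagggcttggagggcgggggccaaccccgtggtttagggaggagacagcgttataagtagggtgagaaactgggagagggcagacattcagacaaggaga

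ER chaperones and degradation genes, a separate arm of protein folding stress, changed in both directions. Of 25 genes for ER chaperones and ER-associated degradation, 6 were higher and 9 lower than normoxia with EHT-1864 (median -0.26), and without the third EHT-1864 array 2 were higher. Among probes above the mean floor 12.3% were higher and 26.3% lower. Hspa5, Pdia6, Dnajc3 and Hyou1 were among the 9 lower, and the 6 higher are not named here. Hspa5, the chaperone BiP, had 11.36, 11.34 and 11.44 with EHT-1864, against 12.01, 12.03 and 12.04 in hypoxia with DMSO and 12.11, 12.17 and 12.16 in normoxia. All EHT-1864 arrays lay below all arrays with DMSO, 1.70-fold under normoxia (adjusted p = 0.000141). Pdia6, a disulfide isomerase, fell by 1.17 on the log2 scale (SE 0.12), Dnajc3 by 0.96 (SE 0.12) and Hyou1 by 0.93 (SE 0.13). Sars, Eprs and Nars, the transfer RNA synthetases for serine, for glutamate and proline, and for asparagine, were among 5 of 16 cytosolic synthetases that were higher, with none lower.

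Many of the largest rises with EHT-1864 were in genes at or near the floor in both DMSO groups. Scg2, a secretogranin of neuroendocrine granules, had 8.61, 9.19 and 8.21 in hypoxia with EHT-1864, against 2.40, 3.06 and 3.20 in hypoxia with DMSO and 2.94, 2.48 and 3.01 in normoxia. Both DMSO groups were below the floor, so Scg2 was at least 8.35-fold above normoxia (adjusted p = 3.21e-08) and at least 8.32-fold above hypoxia with DMSO. Ppargc1a, the coactivator of mitochondrial biogenesis, had 8.998, 8.60 and 8.76 with EHT-1864 and was below the floor in both DMSO groups, at least 9.04-fold above normoxia (adjusted p = 1.07e-07). Gem, a small GTPase that inhibits calcium channels, had 7.70, 8.02 and 7.34 with EHT-1864, against 3.59, 3.21 and 3.50 in normoxia, and was at least 4.22-fold higher. The matricellular protein Ccn3 was at least 5.76-fold, the monocarboxylate transporter family member Slc16a6 at least 5.23-fold and the neurotrophin Bdnf at least 2.98-fold above normoxia.

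The window of Scg2 (chr1:79440027-79440276, - strand) is printed because this gene had the largest rise and holds the cyclic AMP response element TGACGTCA (capitals), a motif chosen after its value was seen. Among the 15 largest rises 1 of 12 genes with a window held that element, against 2.03% of all genes.
Scg2: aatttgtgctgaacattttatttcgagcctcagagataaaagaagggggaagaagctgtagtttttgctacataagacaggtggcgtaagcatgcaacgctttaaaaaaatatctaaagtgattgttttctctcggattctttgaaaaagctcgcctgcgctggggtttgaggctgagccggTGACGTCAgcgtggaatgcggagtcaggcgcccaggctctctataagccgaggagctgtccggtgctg

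The heat shock genes Hspa1b and Hspa1a and the clock gene Nr1d1 rose with EHT-1864. Hspa1b, an inducible HSP70 chaperone, had 11.04, 11.08 and 10.61 with EHT-1864, against 7.17, 6.96 and 7.06 in hypoxia with DMSO and 6.89, 6.80 and 6.95 in normoxia, 16.3-fold above normoxia (adjusted p = 1.18e-08). Hspa1a rose alongside by 13.2-fold (adjusted p = 1.43e-08). These are near-identical copies, so the probes may share signal between them. Nr1d1, the nuclear receptor REV-ERBα that represses clock genes, had 10.76, 10.81 and 10.52 with EHT-1864, against 7.02, 6.98 and 6.59 in hypoxia with DMSO and 7.27, 7.11 and 6.79 in normoxia. Its DMSO groups overlapped each other and lay far below EHT-1864, which was 12.5-fold above normoxia (adjusted p = 1.07e-07).

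Of 18 clock genes 11 were higher and 1 lower than normoxia with EHT-1864 (median 0.86), against 7 higher and none lower in hypoxia with DMSO (median 0.46). In the direct comparison of EHT-1864 with DMSO in hypoxia 7 were higher and 3 lower. The list shares Bhlhe40 and Bhlhe41 with the HIF-1 targets. Per1, a repressor of the clock, had 8.85, 8.82 and 8.62 with EHT-1864, against 7.15, 6.99 and 6.92 in normoxia (1.75 ± 0.13, adjusted p = 2.34e-06). The second REV-ERB gene, Nr1d2, was 2.81-fold higher, and Rora, the activator that binds the same elements, 4.26-fold higher. Clock, the activating subunit itself, fell by 0.67 (SE 0.12, adjusted p = 0.00185).

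Stress and immediate early genes changed in both directions. Gadd45b, a stress sensor of the MAP kinase pathway, had 9.63, 9.95 and 9.36 with EHT-1864, against 6.62, 6.61 and 6.54 in hypoxia with DMSO and 6.20, 5.88 and 6.16 in normoxia, 11.9-fold above normoxia (adjusted p = 1.62e-08). Gadd45g was 7.29-fold above normoxia. The AP-1 subunit Jun had 10.59, 10.75 and 10.24 with EHT-1864, against 8.32, 8.37 and 8.20 in normoxia, and the Krüppel-like factor Klf6 had 10.43, 10.58 and 10.27 with EHT-1864, against 7.85, 7.75 and 7.68. Neither overlapped with either DMSO group, and they were 4.70-fold and 6.34-fold above normoxia. Of 20 immediate early and KLF factors 6 were higher and 6 lower than normoxia (median -0.02), with Egr1, Egr2 and Nr4a3 among the lower. Of 16 CDK inhibitors and p53 targets 6 were higher and 4 lower (median 0.24), and Cdkn2c, an inhibitor of CDK4 and CDK6, fell by 1.33 (SE 0.12). The lower share of both lists was near the 26.3% of probes above the mean floor.

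Of 23 targets of SRF, the factor that actin and its cofactor MRTF control, 10 were higher than normoxia and 1 lower with EHT-1864 (median 0.17), whereas none was higher in hypoxia with DMSO and 1 was lower. Zyx, zyxin of focal adhesions, had 9.34, 9.28 and 9.04 with EHT-1864, against 7.64, 7.51 and 7.57 in hypoxia with DMSO and 7.75, 7.72 and 7.71 in normoxia. It was 2.82-fold above normoxia (adjusted p = 6.3e-06). Srf itself had 9.18, 9.10 and 9.05 with EHT-1864, against 7.97, 7.92 and 7.85 in normoxia, 2.29-fold higher. The calponin Cnn2 was 3.14-fold higher, while Actb, cytoplasmic actin, differed by 0.02 ± 0.10.

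**Figure D3:**
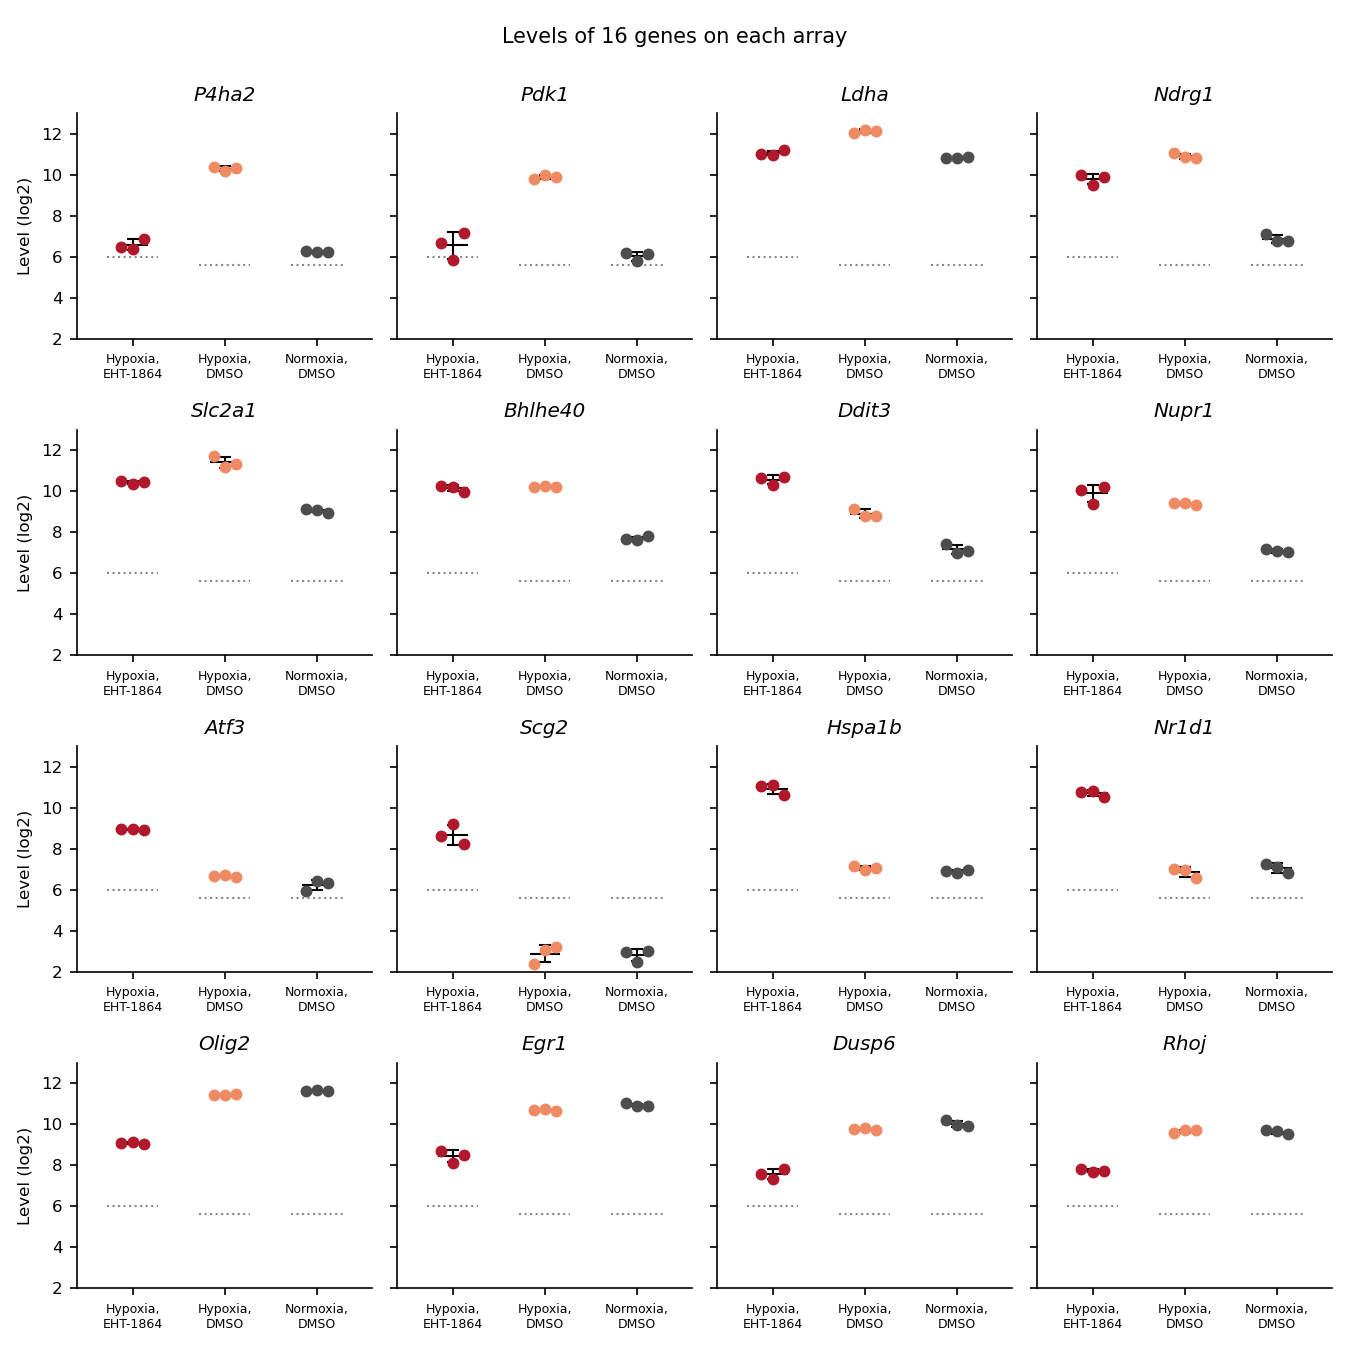
Level (y, log2) of 16 genes on each array of hypoxia with EHT-1864, hypoxia with DMSO and normoxia with DMSO, with the mean and SD (black) and the mean floor of each group (dotted). P4ha2 and Pdk1 with EHT-1864 sit near normoxia, Ndrg1 and Slc2a1 between the DMSO groups, and Scg2, Hspa1b and Nr1d1 above both of them, while Olig2, Egr1, Dusp6 and Rhoj sit below both.

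Genes of the oligodendrocyte lineage, 15 of whose 18 measured markers were above the floor on at least 1 array, were the list among the 35 examined with the largest share of falls. Of 18 measured markers 13 were lower than normoxia and 1 higher with EHT-1864 (median -0.67), against 1 lower and none higher in hypoxia with DMSO. The mean level of the list ran from 8.14 to 8.37 on the EHT-1864 arrays, against 8.97 to 9.06 in normoxia. Olig2, the transcription factor that specifies oligodendrocyte precursors and supports glioma growth, had 9.07, 9.14 and 9.02 with EHT-1864, against 11.43, 11.44 and 11.45 in hypoxia with DMSO and 11.63, 11.68 and 11.59 in normoxia. No array of EHT-1864 came near the others, and Olig2 was 5.88-fold below normoxia (adjusted p = 1.43e-08). Its relative Olig1 had 9.63, 9.999 and 9.33 with EHT-1864, against 11.38, 11.14 and 11.19 in normoxia, 3.00-fold lower.

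Gpr17, a receptor of committed precursors, had 8.49, 8.15 and 8.05 with EHT-1864, against 10.49, 10.42 and 10.40 in hypoxia with DMSO and 10.20, 10.24 and 10.15 in normoxia, 3.91-fold lower than normoxia (adjusted p = 1.24e-06). Sox8 fell by 1.59 (SE 0.16), and Sox10, the master regulator of the lineage, by 0.72 (SE 0.12). Cldn11, a myelin claudin, was the member that was higher (0.65, adjusted p = 0.00119). The Notch ligand Dll3 had 7.71, 7.35 and 7.23 with EHT-1864, against 9.60, 9.78 and 9.77 in hypoxia with DMSO and 9.50, 9.49 and 9.35 in normoxia. It was 4.05-fold below normoxia, and its relative Dll1 fell below the floor, at least 1.67-fold lower (adjusted p = 1.4e-05).

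Of 25 genes of neural and glioma stem cells 9 were lower and 4 higher (median -0.08, 0.04 after quantile normalization), among them Nes, the intermediate filament nestin (-0.94 ± 0.18), and Sox2, a stem cell factor (-0.53 ± 0.13). The adhesion receptor Cd44 had 10.26, 10.12 and 10.19 with EHT-1864, against 8.93, 8.75 and 8.83 in normoxia, 2.56-fold higher. Of 12 astrocyte markers 3 were lower and 1 higher, a lower share near the 26.3% of probes above the mean floor. Markers of cell types foreign to the line were mostly undetected, as 11 of 12 microglia markers were below the floor on all 12 arrays, as were 10 of 12 for endothelium, 10 of 15 for neurons and 9 of 12 for fibroblasts and pericytes.

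Targets and feedback inhibitors of the ERK pathway, which v-erbB drives, were lower. Of 20 genes 10 were lower than normoxia and 2 higher with EHT-1864 (median -0.50), against none lower and 1 higher in hypoxia with DMSO. Egr1, an immediate early factor, had 8.67, 8.10 and 8.50 with EHT-1864, against 10.67, 10.75 and 10.62 in hypoxia with DMSO and 11.003, 10.90 and 10.88 in normoxia, 5.68-fold below normoxia (adjusted p = 1.46e-07). Dusp6, the phosphatase that switches ERK off, had 7.57, 7.33 and 7.80 with EHT-1864, against 9.75, 9.82 and 9.70 in hypoxia with DMSO and 10.19, 9.95 and 9.89 in normoxia, 5.45-fold lower. The EHT-1864 arrays of both genes lay below every array with DMSO.

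Egr2 fell by 2.91 (SE 0.17), the largest fall of any named gene against normoxia, and Spry4, a Sprouty inhibitor, by 2.78 (SE 0.16). Spred2, another feedback inhibitor, fell by 1.22 and the ETS factor Etv5 by 1.28 (SE 0.12 each). The phosphatase Dusp4 was higher (7.999, 8.64 and 7.97 with EHT-1864, against 7.05, 6.91 and 6.83 in normoxia), as was Dusp5. The mouse receptor gene Egfr was below the floor in every group. Its probe is not taken as a measure of the v-erbB transgene, whose level is not given here.

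**Figure D4:**
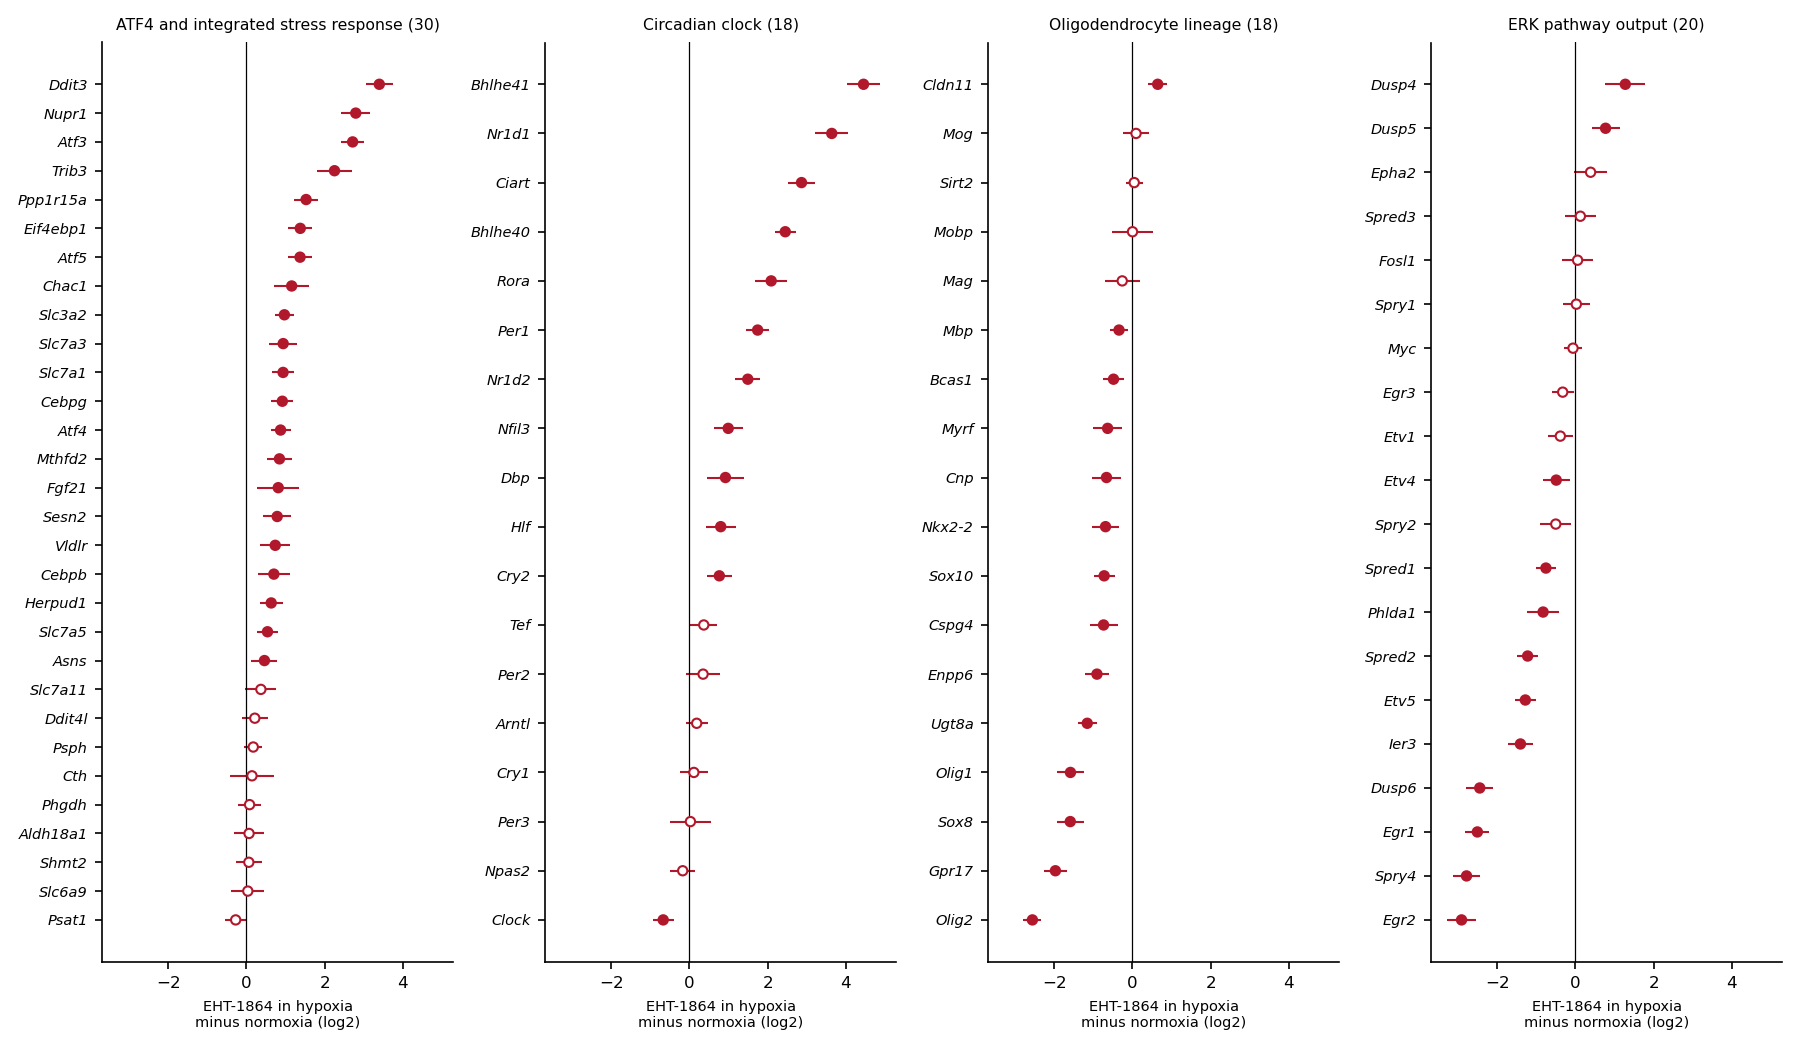
Difference of hypoxia with EHT-1864 minus normoxia (x, log2) with its 95% interval for every measured member of 4 lists, filled where the adjusted p was under 0.05. Most genes of the stress response and the clock lie right of 0, most genes of the oligodendrocyte lineage and of ERK output left of it, down to Egr2 at -2.91.

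The difference in Rac1 itself did not pass the test. Rac1, the target of EHT-1864, had 12.03, 12.04 and 11.87 with EHT-1864, 11.96, 11.91 and 12.01 in hypoxia with DMSO, and 11.99, 11.96 and 12.07 in normoxia. All 3 groups overlapped, and the difference from normoxia was -0.03 ± 0.11 (95% interval -0.27 to 0.21). Rac2 and Rac3 were below the floor with EHT-1864 and in normoxia. For Cdc42, a related switch, the difference was -0.19 ± 0.12 (adjusted p = 0.277), and for Rhoa 0.16 ± 0.11 (adjusted p = 0.351).

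Rhoj, a CDC42-like GTPase, had 7.80, 7.66 and 7.73 with EHT-1864, against 9.57, 9.71 and 9.69 in hypoxia with DMSO and 9.69, 9.68 and 9.51 in normoxia, 3.73-fold below normoxia (adjusted p = 1.59e-07). Some of the exchange factors that load Rac with GTP were among the falls, with Tiam1 at -0.65 ± 0.16 (adjusted p = 0.012), Prex1 at -1.05 ± 0.14 and Vav2, below the floor with EHT-1864, at least 1.59-fold lower (adjusted p = 6.16e-05). The other measured exchange factors are not described here. Rnd3, which opposes RhoA, had 7.74, 7.83 and 7.76 with EHT-1864, against 6.56, 6.48 and 6.55 in normoxia, 2.37-fold higher. Of 27 Rac effectors and actin nucleators 7 were lower and 3 higher, and the lower share was near the 26.3% of probes above the mean floor. Without the third EHT-1864 array or the second normoxia array 4 were lower. The 3 higher became 0 without the first normoxia array, 1 without the third EHT-1864 array, the second normoxia array or the third normoxia array, and 6 after quantile normalization. The Arp2/3 complex subunit Arpc5 had 8.18, 7.55 and 8.26 with EHT-1864, against 9.37, 9.35 and 9.37 in normoxia (-1.37 ± 0.17), while Actr3, another subunit of that complex, was higher (0.33, adjusted p = 0.0357).

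Of 24 genes of G2/M and mitosis 11 were lower and none higher than normoxia with EHT-1864 (median -0.41), and of 24 genes of G1/S and DNA replication 7 were lower and none higher (median -0.22). The share of lower probes among those above the mean floor was 26.3%, close to that of the G1/S list. In hypoxia with DMSO 1 gene of G2/M (median -0.31) and 5 of G1/S (median -0.51) were lower. With EHT-1864 against DMSO in hypoxia 1 gene of G2/M was higher and 6 lower (median -0.07), and 6 genes of G1/S were higher and 4 lower (median 0.25). Ccne1, cyclin E1 of S phase entry, had 6.08, 5.74 and 5.55 with EHT-1864, against 7.03, 6.94 and 7.03 in hypoxia with DMSO and 7.94, 8.04 and 7.64 in normoxia, 4.24-fold below normoxia (adjusted p = 1.21e-05). Its groups stood in 3 separate bands. Ccne2 fell by 1.98 (SE 0.16), the ribonucleotide reductase subunit Rrm2 by 1.93 (SE 0.19), the mitotic kinase Aurkb by 1.41 (SE 0.14) and cyclin A2, Ccna2, by 1.29 (SE 0.13). Proliferation markers did not all follow, with Mki67 at 0.10 and Top2a at -0.00 against normoxia, neither past the threshold. The G2/M motif TTTGAA was in 15 of 19 genes with a window (78.9%, against 20.2% of all genes), and the E2F motif TTTCGCGC or TTTGGCGC in 6 of 19 G1/S genes (31.6%, against 0.929%).

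Of 13 genes of fatty acid synthesis 7 were lower and none higher than normoxia with EHT-1864 (median -0.55), against 1 higher and none lower in hypoxia with DMSO. Fasn, fatty acid synthase, had 7.95, 7.62 and 7.63 with EHT-1864, against 9.18, 9.04 and 8.94 in hypoxia with DMSO and 9.44, 9.21 and 9.15 in normoxia, 2.90-fold below normoxia (adjusted p = 1.12e-05). The elongase Elovl6 was 2.56-fold lower, with no overlap with either DMSO group. Of 19 cholesterol genes 6 were lower and 1 higher than normoxia (median -0.24), a share near the 26.3% of probes above the mean floor, and 4 were lower after quantile normalization. With EHT-1864 against DMSO in hypoxia 14 of the 19 were lower and none higher (median -0.48). Among those below normoxia were the last reductase of the pathway, Dhcr7 (-1.03 ± 0.17), and squalene epoxidase, Sqle (-0.88 ± 0.14).

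Against the other compound, the new rises and falls did not share 1 pattern. Hspa1b had 11.04, 11.08 and 10.61 with EHT-1864, against 7.89, 7.61 and 7.77 in hypoxia with BFA, higher with EHT-1864 by 3.16 ± 0.14. Nr1d1 was higher with EHT-1864 than with BFA by 3.25 ± 0.20. Scg2 was at least 4.53-fold higher with EHT-1864 than with BFA, where it was below the floor. Olig2 had 9.07, 9.14 and 9.02 with EHT-1864, against 7.98, 8.23 and 8.10 with BFA, higher with EHT-1864 by 0.97 ± 0.11. The difference in Dusp6 was 0.39 ± 0.16 (adjusted p = 0.0722). Ddit3 was lower with EHT-1864 than with BFA (-0.83 ± 0.16, adjusted p = 0.00104).

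**Figure D5:**
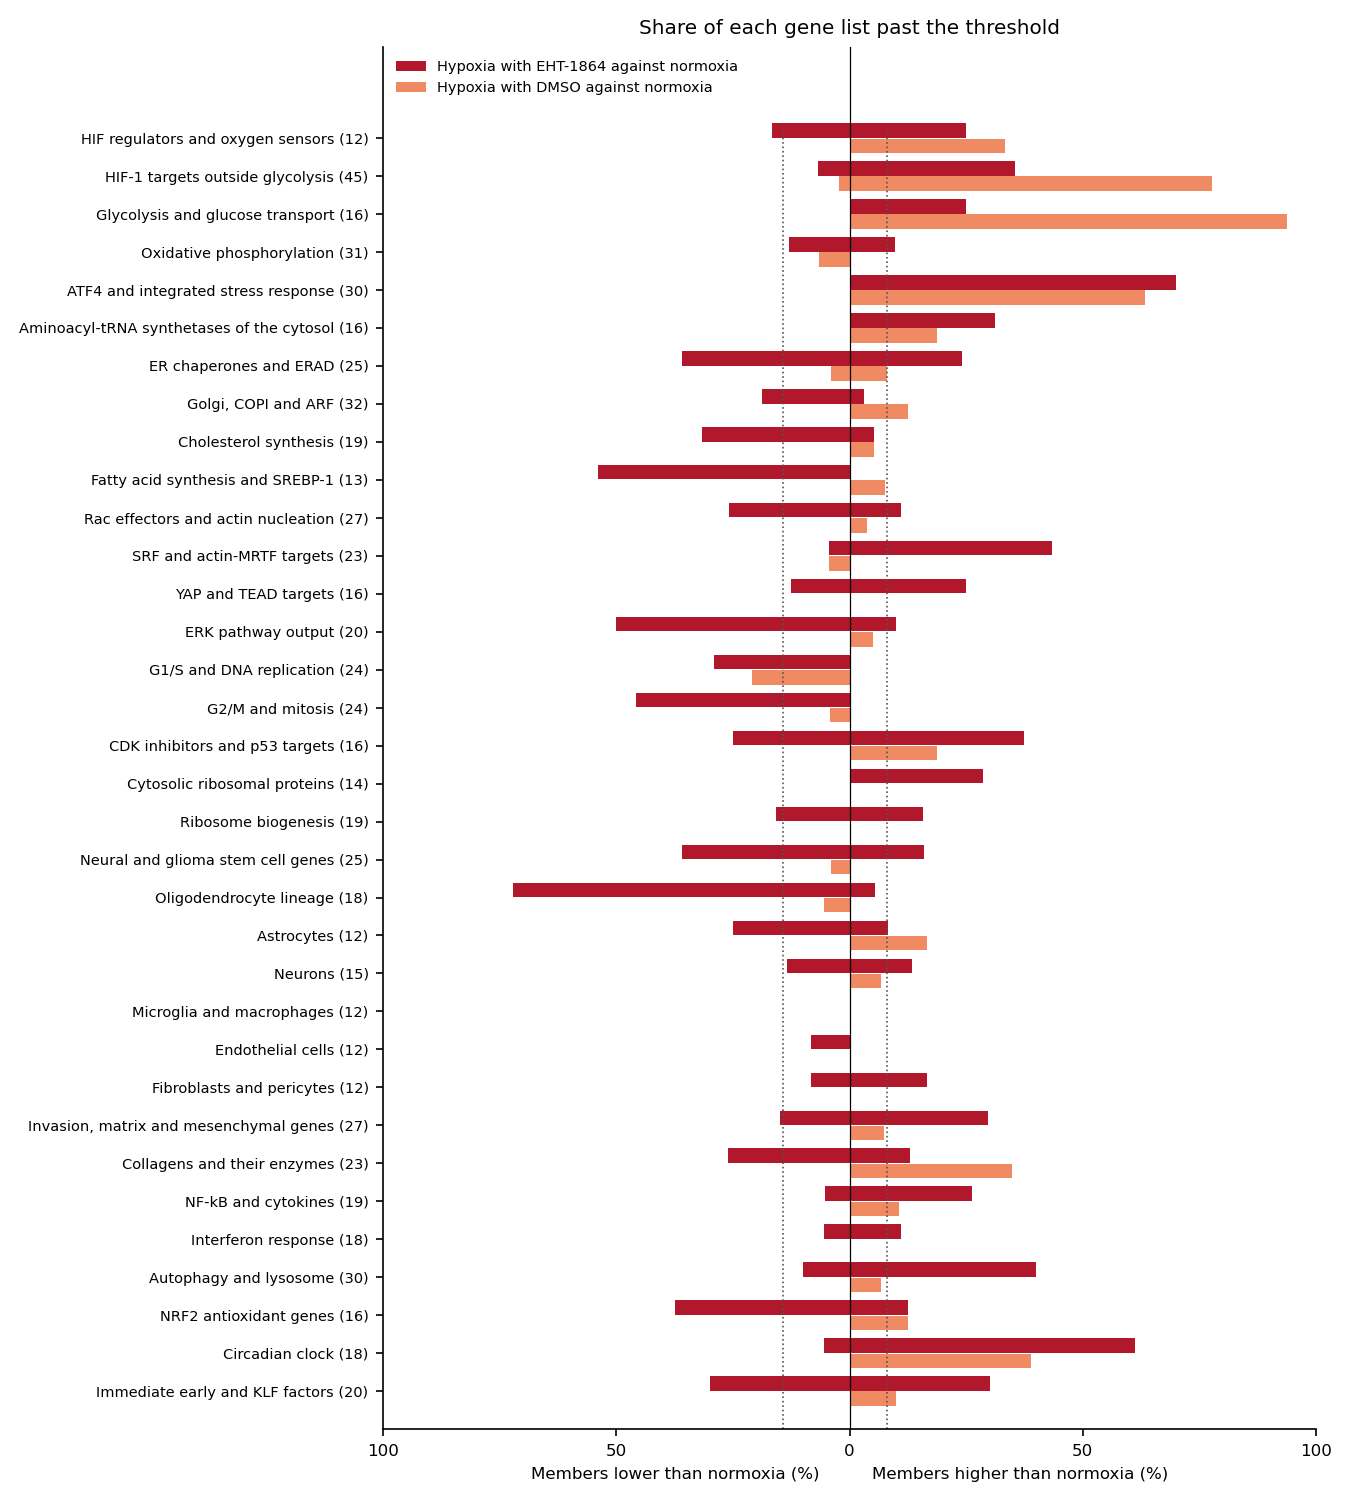
Share of the measured members (in brackets) of 34 gene lists that passed the test as higher (right) or lower (left) than normoxia, in %, for hypoxia with EHT-1864 (red) and hypoxia with DMSO (orange). Dotted lines give the share of all probes with EHT-1864, 8.1% higher and 14.3% lower. Glycolysis has the longest orange bar and the oligodendrocyte lineage the longest red bar to the left.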

How the data were processed

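RNA of 12 cultures was measured on Clarion S mouse arrays, 3 per group. The authors summarised the arrays with RMA in Affymetrix Expression Console, per the submitters' processing notes, and deposited log2 values for 28846 rows, of which 6640 are controls. Software versions and the genome build are not given in the sources used here. Values scaled to a common level across arrays hold no information on total RNA per cell. Of the 22206 probes tested, 19572 carry 1 gene symbol in the platform annotation, all matched by Entrez identifier, and 2634 carry none. Genes with several probes are given by the probe with the highest mean, and none of 55 such genes had probes that passed in opposite directions.

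The deposited log2 values were fitted in R 4.3.3 with limma 3.58.1, all 12 arrays in 1 model of 4 groups (8 residual degrees of freedom, moderated variance), with Benjamini-Hochberg adjustment over all probes at 0.05. The fit was tested on simulated data. The p-values measure the spread between cultures, and 3 arrays per group limit their precision. Intervals of 95% are not adjusted. A bound ("at least") compares the brighter group's mean with the mean of the dimmer group's array floors.

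Named genes were fixed genes, the 15 largest changes in each direction against normoxia and the 10 largest hypoxic changes in each direction. Genes that passed without overlap, in the same direction, against both normoxia and hypoxia with DMSO gave 10 more in each direction. These were ranked by the smaller of their changes. Up to 3 leading members of each of 35 gene lists were added. Other list members are named as examples. Members and lists were chosen with earlier results of these data known. Promoter windows are from RefSeq, GRCm38.p6. The labels do not say that equal numbers share a culture, so arrays were not treated as pairs. Same-numbered arrays of the EHT-1864 and normoxia groups correlated between 0.03 and 0.17 in their deviations from group means. Alternatives covered scaling, filters on dim probes, variance models, array weights, the groups fitted, a replicate block and single arrays left out. The result of 1 gene list is not reported here.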

Additional observations from a re-analysis of the deposited data

Results flagged for a closer look

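Control probes outside the comparison stood higher on the EHT-1864 arrays than on the normoxia arrays. The 4 hybridization controls, bacterial transcripts added at fixed amounts, averaged 10.25 (log2) over the 3 arrays of hypoxia with EHT-1864, against 9.85 in normoxia, with no overlap between the groups (10.2 to 10.33 against 9.80 to 9.92). The 95th percentile of the negative control probes averaged 6.01 with EHT-1864 (5.88 to 6.15), against 5.61 in normoxia (5.59 to 5.63). Both were close to the normoxia values in hypoxia with DMSO, at 9.76 and 5.61. Their part in the gene results was not tested.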

How the results depend on the processing

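The count of 4965 probes that passed in hypoxia with EHT-1864 against normoxia lay between 3451 and 4402 when single arrays were left out. Its higher part (1798) fell between 1172 and 1498, lowest without the first normoxia array and 1175 without the second, and its lower part (3167) between 2279 and 2904. Hypoxia with DMSO against normoxia (593) gave 254 to 315 without single arrays, 1247 over the probes that exceeded the floor on 3 or more arrays, 1221 with trended and robust variance, 2258 with array weights and 1234 with only the compared groups fitted. EHT-1864 against DMSO in hypoxia gave 4986 to 6128, and EHT-1864 against BFA 6900 to 8280, without single arrays. A replicate block gave 4570 against normoxia (1603 higher, 2967 lower), and 4 of 6 arrays correlated best with their own number.

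Of the named genes' values against normoxia under these alternatives, 1808 kept direction and call, 17 lost the call and 13 gained it. Lost calls were those of Slc2a3 (adjusted p = 0.0539 with the block), Dkc1, Erg, Rpl11, Rpl27 and Rpl3, and gained ones those of Ddit4, P4ha2, Pdk1 and Ldha (adjusted p = 0.0401 with trended and robust variance). Signs turned only for values near 0 that had not passed. Hif1a against normoxia was 0.10 after quantile normalization, 0.014 after median subtraction and 0.0061 with array weights, and -0.047 to 0.047 without single arrays. Rac1 against hypoxia with DMSO was -0.067 after quantile normalization, -0.0015 with array weights and -0.011 to 0.073 without single arrays, and against normoxia -0.059 to 0.024. Spry4 against BFA ran from -0.26 to 0.011. In hypoxia with DMSO against normoxia, Tril was -0.043 after quantile normalization, -0.015 after median subtraction, -0.0034 with array weights and -0.055 to 0.068 without single arrays, Cdc42 ran from -0.077 to 0.0019, Hspa1a from -0.14 to 0.0048 and Nes from -0.13 to 0.069. The causes were not tested. A narrower range of values on the EHT-1864 arrays and 3 arrays per group limit small and dim changes.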

Other observations

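Genes of autophagy and the lysosome were higher in part. Of 30 measured genes 12 were higher and 3 lower than normoxia with EHT-1864 (median 0.22), against 2 higher and none lower in hypoxia with DMSO. Gabarapl1, which builds autophagosome membranes, had 10.64, 10.66 and 10.70 with EHT-1864, against 9.37, 9.19 and 9.33 in hypoxia with DMSO and 9.31, 9.23 and 9.28 in normoxia. It was 2.63-fold above normoxia (adjusted p = 3.76e-06). The autophagy receptor Sqstm1 was 2.16-fold, the cathepsin Ctsl 3.08-fold and Mitf, a regulator of lysosomal genes, 3.24-fold above normoxia. Of 16 NRF2 antioxidant genes 6 were lower and 2 higher, against 26.3% lower and 12.3% higher among probes above the mean floor. Hmox1, given above, was among the higher and had the smallest adjusted p of the list. Gclc, which makes glutathione, was lower at -1.23 ± 0.13 and the thioredoxin reductase Txnrd1 at -1.13 ± 0.12. Of 31 genes of oxidative phosphorylation 3 were higher and 4 lower, which became 5 higher and 2 lower after quantile normalization. Without the first or the second normoxia array 1 was higher, and 2 were lower without any 1 of EHT-1864 arrays 1 and 2 and normoxia arrays 1 and 3.

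Adhesion and matrix genes changed both ways. Of 27 invasion and mesenchymal genes 8 were higher and 4 lower (1 lower without the first normoxia array), and of 23 collagens and collagen enzymes 3 were higher and 6 lower (3 lower without the second normoxia array), against 8 higher and none lower in hypoxia with DMSO. Both collagen shares with EHT-1864 were near those of probes above the mean floor, 12.3% higher and 26.3% lower. Fibronectin, Fn1, had 9.39, 9.32 and 8.90 with EHT-1864, against 7.97, 7.69 and 7.17 in hypoxia with DMSO and 6.61, 6.42 and 6.26 in normoxia. The 3 groups stood in separate bands, with EHT-1864 6.83-fold above normoxia (adjusted p = 1.59e-06). Snai2, a repressor of epithelial genes, was 5.82-fold above normoxia. E-cadherin, Cdh1, an epithelial gene, was below the floor in normoxia and at least 4.12-fold higher with EHT-1864, while N-cadherin, Cdh2, differed by -0.64 ± 0.17 (adjusted p = 0.0145) and the integrin Itgav by -1.03 ± 0.12.

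Of 19 NF-kB and cytokine genes 5 were higher and 1 lower (median 0.34), and 12 were below the floor both with EHT-1864 and in normoxia. The inhibitor Nfkbia was 2.23-fold and the deubiquitinase Tnfaip3 3.59-fold above normoxia. Among 18 interferon response genes 2 were higher and 1 lower, and 14 were below the floor both with EHT-1864 and in normoxia. The higher share was near the 12.3% of probes above the mean floor. The lower member, Cmpk2, was among those below the floor in both groups. Ifit3 had 7.31, 7.91 and 6.44 with EHT-1864, at least 3.06-fold above normoxia (adjusted p = 1.65e-05), and Ifit3b, a near-identical copy whose probe may share its signal, at least 1.28-fold.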
